A study of Mus musculus with 21 samples.

Results

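A set of 10 genes of the cardiac sarcomere linked to inherited cardiomyopathy, myosins left aside, was described in left ventricles of mice with and without a myosin mutation. They were Mybpc3, Tnnt2, Tnni3, Tnnc1, Tpm1, Actc1, Ttn, Actn2, Myoz2 and Csrp3. The members were chosen by name, as the rows of the deposited table of counts whose Ensembl identifiers carry these symbols: 10 genes of 55450 in the table, all 10 among the 17309 genes with enough counts to be tested.

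RNA was sequenced from frozen left ventricles of 21 male mice of strain 129S6/SvEv. Heterozygous carriers of R403Q, an amino acid change in α-myosin heavy chain (gene Myh6) that models hypertrophic cardiomyopathy, were compared with wild-type (WT) mice on a control diet (CD) or on that diet with the sodium-glucose cotransporter inhibitor empagliflozin (EMPA, 0.15 mg per g of diet, about 15 mg per kg of body weight). The groups were WT-CD (n = 5), R403Q-CD (n = 7), WT-EMPA (n = 5) and R403Q-EMPA (n = 4), and the sample protocol lists these groups without WT-EMPA. Sources differ on the treatment: the sample protocol has it start at 9 to 10 weeks of age and last 16 weeks, whereas the study's methods describe hearts of 12-week-old mice after 2 weeks. The mutation changes 1 residue of a heart muscle protein, so levels of RNA cannot check the genotype labels. By the cage given in the labels, the mice came from 7 cages, of which 0 held both diets and 6 held both genotypes. Cage and diet therefore cannot be told apart, while the genotypes can be compared within cages, though with few mice in each. On EMPA, cages 68692 and 68695 each held 2 R403Q mice and 1 WT mouse, and cage 68691 held WT mice only. The cages on CD each held 1 to 3 R403Q mice and 1 or 2 WT mice.

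The sarcomere is the contractile unit of heart muscle. Thin filaments of actin carry tropomyosin and the troponin complex, which lets myosin bind when calcium rises; thick filaments of myosin carry myosin-binding protein C; titin spans from the Z-disc, where thin filaments are anchored, to the M-band at the centre. Mutations of these proteins cause hypertrophic or dilated cardiomyopathy in people, and myosin-binding protein C, together with the β-myosin heavy chain, is among the most often affected.

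By role, the members fall into 4 sets. Actc1 (cardiac α-actin), Tpm1 (α-tropomyosin), Tnnt2 (troponin T, which ties the complex to tropomyosin), Tnni3 (troponin I, the inhibitory subunit) and Tnnc1 (troponin C, the calcium sensor) form the thin filament. Mybpc3 belongs to the thick filament. Ttn encodes titin. Actn2 (α-actinin, which cross-links actin at the Z-disc), Myoz2 (myozenin 2, which binds α-actinin and calcineurin) and Csrp3 (muscle LIM protein, a Z-disc and signalling protein) lie at the Z-disc.

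Positions are those of GRCm38 in the GENCODE annotation. Csrp3 (ENSMUSG00000030470) spans chromosome 7 from 48830398 to 48848033 on the minus strand, Ttn (ENSMUSG00000051747) chromosome 2 from 76703980 to 76982547 on the minus strand, Tpm1 (ENSMUSG00000032366) chromosome 9 from 67022590 to 67049406 on the minus strand and Myoz2 (ENSMUSG00000028116) chromosome 3 from 123006206 to 123035015 on the minus strand. Exons of Tnni3 share 86 bases with Dnaaf3, whose counts came to 0.161% of those of Tnni3, and exons of Ttn share 453 bases with the antisense gene Gm13938, which had 19 counts over all mice. How reads over these shared bases were counted was not tested.

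The promoters of 4 members are shown. Csrp3 was the member that passed a test. Between mice, with group means subtracted, Tnnt2 and Tnnc1 varied together (Pearson r = 0.71) and Ttn varied against Tnnc1 (r = −0.50). Other pairs had higher values, and Ttn and Tnnc1 also followed a property of the libraries, both described further on. Each promoter is the 250 bases before a RefSeq start on GRCm38.p6, 5′ to 3′ on the strand of the gene. None of these 4 windows holds an annotated exon. Capitals mark matches on either strand to CATTCC (the MCAT element), GATAA (the GATA element), the MEF2 site or the CArG box.
Csrp3, chr7:48848052-48848301, minus strand: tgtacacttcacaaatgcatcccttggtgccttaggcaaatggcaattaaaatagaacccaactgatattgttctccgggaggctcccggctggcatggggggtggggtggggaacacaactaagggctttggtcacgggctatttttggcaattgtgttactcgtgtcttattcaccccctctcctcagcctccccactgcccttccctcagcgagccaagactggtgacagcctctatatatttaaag
Tnnt2, chr1:135836084-135836333, plus strand: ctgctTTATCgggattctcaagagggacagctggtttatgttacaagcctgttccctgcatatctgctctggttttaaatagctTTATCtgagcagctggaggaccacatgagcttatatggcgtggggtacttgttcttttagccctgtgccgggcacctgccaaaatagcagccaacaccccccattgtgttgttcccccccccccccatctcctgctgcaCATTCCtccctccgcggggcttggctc
Tnnc1, chr14:31208062-31208311, plus strand: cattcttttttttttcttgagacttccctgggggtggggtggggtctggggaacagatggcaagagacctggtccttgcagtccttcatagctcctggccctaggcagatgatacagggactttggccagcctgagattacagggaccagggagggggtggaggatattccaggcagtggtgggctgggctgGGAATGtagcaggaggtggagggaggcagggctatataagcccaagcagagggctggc
Ttn, chr2:76982548-76982797, minus strand: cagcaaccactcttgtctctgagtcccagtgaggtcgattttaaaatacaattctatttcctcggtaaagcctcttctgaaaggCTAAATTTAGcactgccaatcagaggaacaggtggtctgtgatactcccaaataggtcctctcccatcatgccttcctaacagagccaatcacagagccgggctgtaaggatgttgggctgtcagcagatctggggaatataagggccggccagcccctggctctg

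In these windows CATTCC was found for 3 of the 10 members (Tnnt2, Tnnc1 and Tpm1) and in 12.6% of all 32851 RefSeq promoter windows of the same length. GATAA occurred for 3 members, against 22.6% of all windows. The MEF2 site was matched for 3 members (Mybpc3, Ttn and Myoz2), against 2.92%, and the CArG box for Actc1 alone, against 1.47%. The E-box CANNTG was matched for 9 members, against 66.2%, and TATAAA for 0, against 12.4%. Csrp3 had 4 E-boxes and none of the capitalized motifs. The RefSeq starts used for Tnni3 and Actc1 lie 1701 and 673 bases from the annotated start, and their windows lie inside the annotated genes. Annotated exon took 193 bases of the window of Tpm1, 84 of Tnni3, 28 each of Actn2 and Myoz2 and 12 of Actc1. A match is a description of letters and not evidence of binding.

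Totals ran from 23491535 to 43539684 counts per mouse, so that 3 counts, taken as the smallest detectable level, corresponded to 0.0689 to 0.128 CPM (library-scaled counts, with trimmed-mean, TMM, factors; the limit covers counting error only). The lowest member value of any mouse lay far above this limit, so the spread between mice and not the depth set the precision. The members together took between 5.06% and 6.36% of all counts. Left ventricle was checked against markers: the 10 cardiomyocyte markers outside the sarcomere summed to between 27784 and 53056 CPM, 5 skeletal muscle markers to at most 1.75 CPM, and 3 atrial markers to between 2.12 and 608 CPM. Myh6 had means of 43239 ± 2321 CPM (WT-CD, n = 5), 32934.5 ± 7865 (R403Q-CD, n = 7), 45221 ± 5482 (WT-EMPA, n = 5) and 34797 ± 4211 (R403Q-EMPA, n = 4), each with its SD. Over both diets it was lower in R403Q (log2 fold change −0.39, SE 0.119, adjusted p = 0.0419, edgeR) and in 6 of 6 cages. R403Q-CD replicate 2 stood apart with 17530 CPM of Myh6, and without it the averaged Myh6 value was −0.34 (adjusted p = 0.0077, edgeR). The same mouse had the highest atrial sum, 608 CPM, where the next was 260 CPM in WT-CD replicate 5. It also had the lowest cardiomyocyte sum, 27784 CPM, where the next was 37018 CPM in R403Q-CD replicate 5.

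Per unit of length the thin filament genes were the most abundant. Levels between genes are compared in TPM, counts divided by the length of the longest principal transcript and scaled to the same sum in each mouse. Over 21 mice Actc1 averaged 18253 ± 2699 TPM (SD) and Tnnt2 16419 ± 1284, followed by Tpm1 at 10741 ± 1312, Tnni3 at 10233 ± 1159 and Tnnc1 at 10025 ± 1051. Csrp3 reached 3178 ± 533 TPM, Mybpc3 2478 ± 264, Myoz2 2303 ± 177, Actn2 1742 ± 177 and Ttn 133 ± 29.7. Ttn thus stood far below the rest on this scale although it took more counts than Tnni3 (6599 against 4672 CPM), since its transcript has 100404 bases against 912.

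Of the 9 neighbouring pairs in this order, 3 did not differ beyond their spread in WT-CD (mean ± SD, n = 5): Actc1 and Tnnt2, Csrp3 and Mybpc3, and Mybpc3 and Myoz2. In single mice Actc1 exceeded Tnnt2 in 14 of 21, while Tnnt2 exceeded Tpm1 and Actn2 exceeded Ttn in 21 of 21. The order depends on the length used. With all annotated exons merged, Tnnt2 moved from the second to the fifth place (3658 TPM) and Csrp3 from the sixth to the eighth (1538 TPM), while Actc1 stayed the highest and Ttn the lowest.

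The range of levels between mice differed by member. The highest mouse had 1.38 times the CPM of the lowest for Myoz2, 1.41 times for Actn2, 1.84 times for Csrp3, 2.13 times for Tnni3 and 2.21 times for Ttn. The coefficient of variation of CPM over all mice ran from 9.0% for Actn2 to 19.7% for Ttn.

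**Figure D1:**
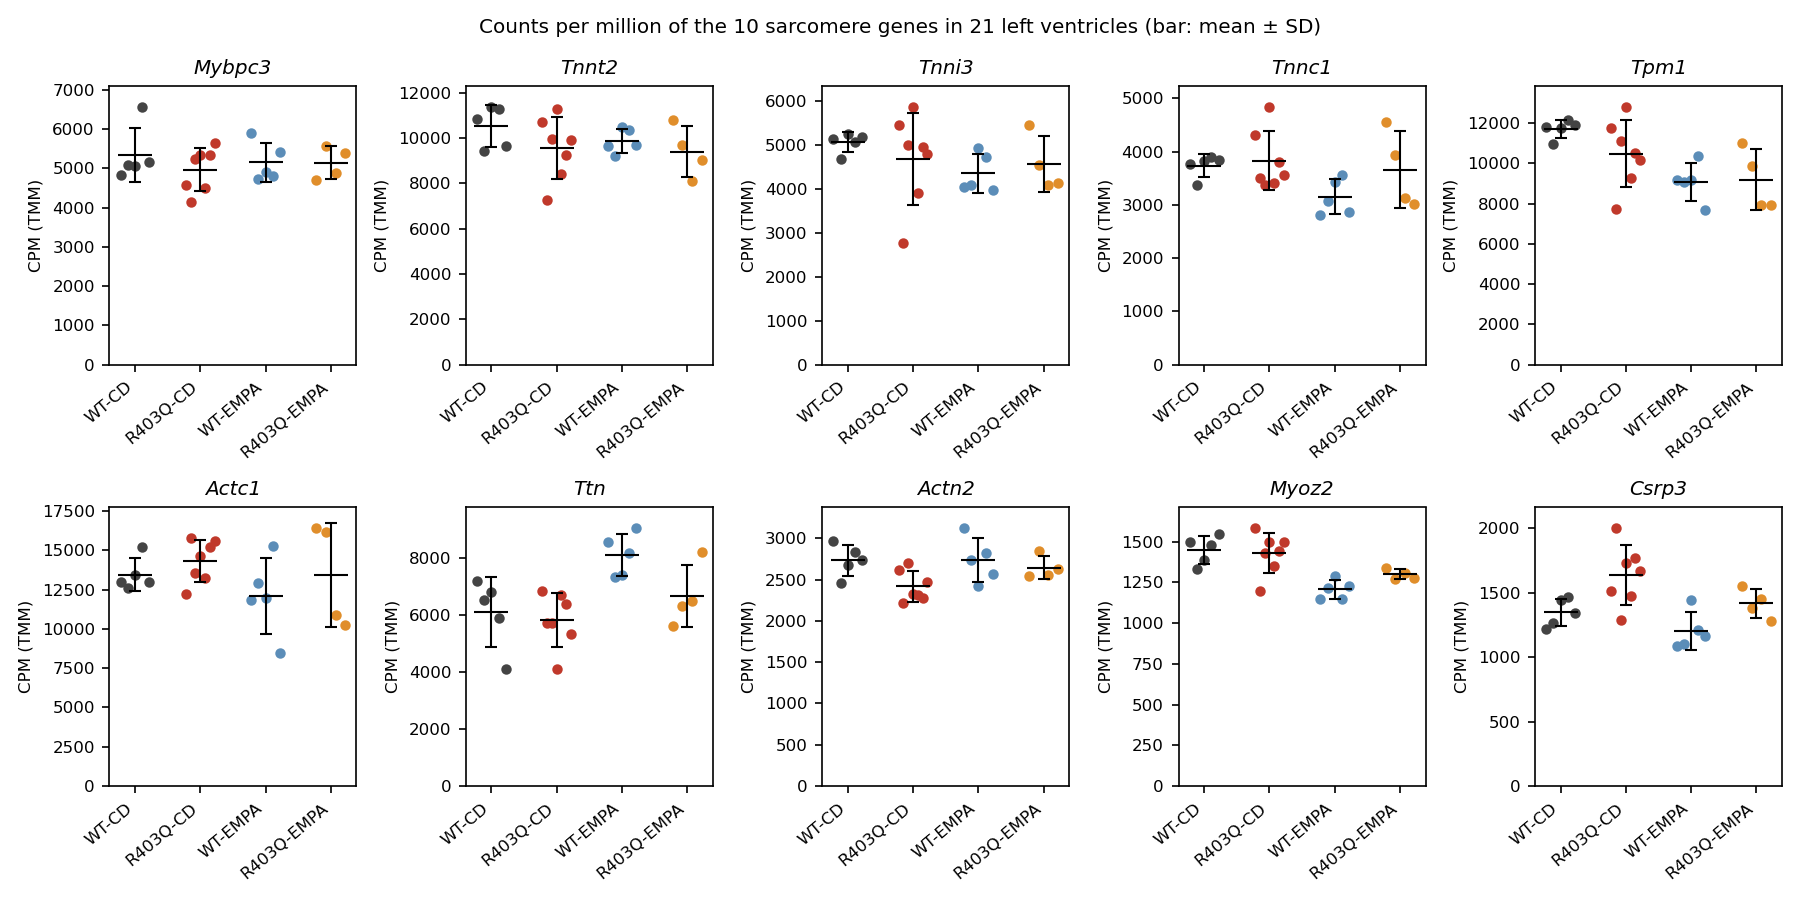
CPM (TMM-scaled, linear axes from 0) of the 10 genes in each of 21 mice, by group; bars are mean ± SD. Csrp3 of 6 of 7 R403Q-CD mice lies above all WT-CD mice, and Ttn, Tpm1 and Myoz2 of the 5 WT-EMPA mice do not overlap with the 5 WT-CD mice.

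The comparison of R403Q-CD with WT-CD asks whether the myosin mutation alone goes with other levels of these genes. For 0 of the 10 members the adjusted p (Benjamini-Hochberg over all 17309 genes, edgeR's quasi-likelihood test) was under 0.05, where 1.44% of all tested genes passed. DESeq2 and limma likewise called 0 members. At an unadjusted p under 0.05 there were 2, Csrp3 and Actn2. The median log2 fold change over the members was −0.09, against 0.01 over all genes tested, with 3 members above 0 and 7 below.

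Csrp3, whose protein links the Z-disc to gene regulation, had the largest difference of the members. Its 5 WT-CD mice had 1222, 1266, 1341, 1445 and 1465 CPM, and the R403Q-CD mice ran from 1291 to 2002 CPM with a median of 1670. Of the R403Q-CD mice, 6 of 7 were above all WT-CD mice, and the groups overlapped through 1 R403Q-CD mouse. Group means were 1348 ± 107 CPM (SD, n = 5) and 1638 ± 232 CPM (SD, n = 7). On the log2 scale the groups differed by 0.28 (SE 0.0982, adjusted p = 0.119, edgeR). Of the 12 fits that left out 1 of these mice, 1 called Csrp3, the fit without the lowest R403Q-CD mouse, replicate 3 (0.33, adjusted p = 0.0391, edgeR), in which 6.02% of all genes passed. The other 11 fits had adjusted p of 0.105 to 0.267 (edgeR).

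Actn2 averaged 2734 ± 188 CPM over the 5 WT-CD mice and 2417 ± 185 CPM over the 7 R403Q-CD mice (mean ± SD). Its log2 fold change was −0.18 (SE 0.0764, adjusted p = 0.189, edgeR), and 4 of 7 R403Q-CD mice were below all WT-CD mice. For the remaining 8 members log2 fold changes lay between −0.16 (Tpm1) and 0.09 (Actc1). The confidence intervals limit what could have been missed: over all 10 members the bound farthest from 0 was 0.48, for Csrp3. Groups did not overlap for 0 of 10 members, against 2.12% of all genes tested.

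Tnni3 ran from 2760 to 5875 CPM in R403Q-CD (median 4966), and the lowest value belonged to replicate 2. The WT-CD mice had 4679, 5080, 5132, 5179 and 5258 CPM, so the R403Q-CD range lay on both sides of WT-CD, with 2 mice above and 2 below all WT-CD mice. In replicate 2 Csrp3 was at its highest, 2002 CPM.

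Tnnt2, Actc1, Tnnc1 and Mybpc3 gave overlapping ranges in all 4 comparisons between groups. On CD, Tnnt2 ran from 9441 to 11391 CPM in WT mice and from 7291 to 11301 CPM in R403Q mice, with medians of 10844 and 9916 CPM. On EMPA it ran from 9218 to 10509.6 CPM and from 8093 to 10810.0 CPM, with medians of 9717 and 9361 CPM. Actc1 ranged more widely on the EMPA diet, from 8477 to 15266 CPM in WT mice and from 10228 to 16402 CPM in R403Q mice, against 12608 to 15235 in WT-CD and 12220.0 to 15777 in R403Q-CD. Tnnc1 ran from 3374 to 3896 CPM in WT-CD, from 3371 to 4845 in R403Q-CD, from 2816 to 3561 in WT-EMPA and from 3026 to 4555 in R403Q-EMPA. Mybpc3, whose protein tunes how myosin heads meet actin, had medians of 5089 CPM in WT-CD, 5249 in R403Q-CD, 4897 in WT-EMPA and 5144 in R403Q-EMPA, with all mice between 4147 and 6572 CPM.

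On the EMPA diet, which asks the same question of genotype in treated mice, 0 of 10 members passed either, against 0.0578% of all genes. DESeq2 and limma also called 0, and 1 member, Csrp3, had an unadjusted p under 0.05. Csrp3 had 1089, 1100, 1164, 1214 and 1447 CPM in WT-EMPA and 1279, 1386, 1453 and 1552 CPM in R403Q-EMPA. In WT-EMPA, 4 of 5 mice lay below all R403Q-EMPA mice, and the other one lay within their range. The log2 fold change was 0.24 (SE 0.112, adjusted p = 0.327, edgeR), and 0.08 (adjusted p = 0.864) in a fit chosen after the data were seen, with the length slope described further on as a covariate. The largest difference by size was that of Ttn, −0.28 (SE 0.159, adjusted p = 0.409, edgeR), with 3 of 4 R403Q-EMPA mice below all WT-EMPA mice. Groups did not overlap for 0 of 10 members, against 6.77% of all genes.

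Averaged over both diets, Csrp3 was higher in R403Q hearts and was the single member to pass. The log2 difference was 0.26 (SE 0.0743, 95% interval 0.10 to 0.41, adjusted p = 0.0311, edgeR), which corresponds to 1.2-fold. The call of 1 of 10 members stands against 10.9% of all genes tested, 6.3% higher and 4.58% lower, a share close to that of genes in general. With counts scaled to library size alone, 1909 genes were higher and 443 lower, in place of 1091 and 792. In a fit of all 4 groups this average draws on 21 mice, 11 R403Q and 10 WT.

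Within cages the difference of Csrp3 held its sign. R403Q exceeded WT in 6 of 6 cages, by 0.03 to 0.57 on the log2 CPM scale, and among the members Csrp3 alone did so, against 9.7% of all genes. Tnnt2 was below WT in 6 of 6 cages, by −0.51 to −0.02, against 10.1% of all genes lower in every cage, and its averaged log2 difference of −0.11 (SE 0.0802, adjusted p = 0.396, edgeR) did not pass. With cage as a factor the Csrp3 value was 0.28 and no longer past the threshold (adjusted p = 0.0778, edgeR). Without R403Q-CD replicate 2 it was 0.22 (adjusted p = 0.0283, edgeR). Leaving out each of the 21 mice in turn kept the call in 13 fits and lost it in 8, those without WT-CD replicates 1 or 2, WT-EMPA replicates 1, 2 or 5, or R403Q-EMPA replicates 1, 2 or 3 (adjusted p of 0.051 to 0.0765, edgeR). Without a filter on low counts it was lost as well (0.25, adjusted p = 0.0624, edgeR), and with the length slope of the libraries, described further on, as a covariate (chosen after the data were seen) the value was 0.14 (adjusted p = 0.327, edgeR).

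Other measures moved with genotype beside Csrp3. The summed level of 5 macrophage markers ran from 154 to 205 CPM in WT-CD and from 207 to 324 CPM in R403Q-CD, and all 5 markers rose in R403Q over both diets. The sum of 7 fibroblast markers ran from 1105 to 1831 CPM and from 1507 to 5181 CPM with a median of 1651 CPM (the highest was R403Q-CD replicate 2, and the next was 2711 CPM), with 2 of 7 higher over both diets (Dcn and Lum). In WT-CD the cardiomyocyte markers ran from 46197 to 53056 CPM, and in R403Q-CD from 27784 to 48845, with 3 of 10 lower over both diets (Slc8a1, Atp2a2 and Cacna1c). On the EMPA diet the macrophage sum ran from 134 to 207 CPM in WT and from 217 to 297 CPM in R403Q, the fibroblast sum from 982 to 1600.4 and from 1645 to 2102 CPM, and the cardiomyocyte sum from 47372 to 50628 and from 42298 to 48090.1 CPM. No marker of these lists was at 0 in all mice. In bulk tissue, fewer cells of a type and less RNA per cell cannot be told apart, and the part of cell composition in the members' values was not tested.

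**Figure D2:**
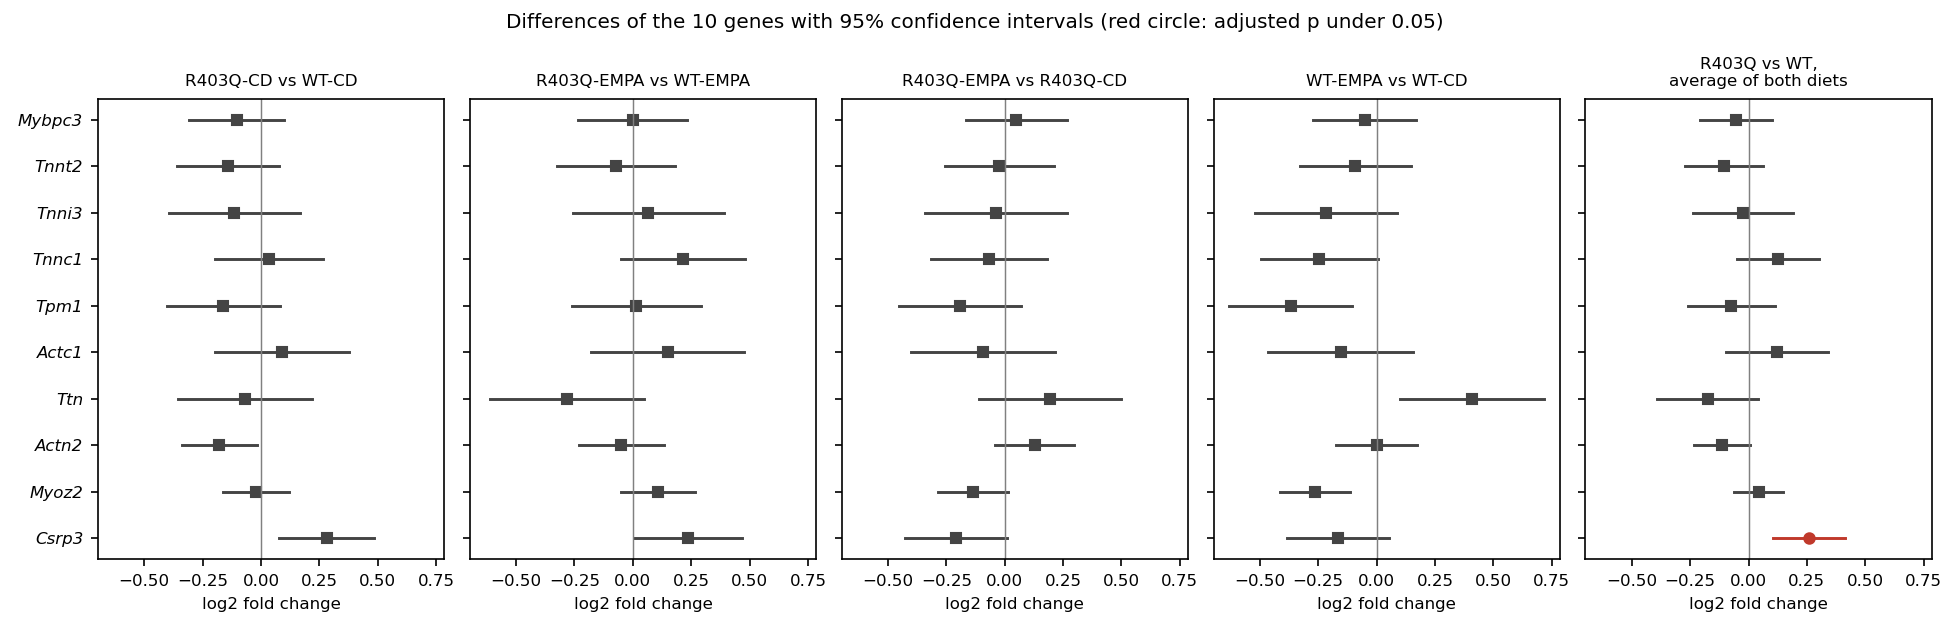
Log2 fold changes (points) with 95% confidence intervals (lines) of the 10 genes in 5 comparisons from 1 edgeR fit of 21 mice; each title names the first group minus the second. Csrp3 in the average over both diets (0.26) is the single value past an adjusted p of 0.05, and the Ttn value of WT-EMPA against WT-CD (0.41) lies opposite to those of Tpm1 and Myoz2.

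Empagliflozin in R403Q hearts went with no called difference in these genes. Between R403Q-EMPA and R403Q-CD 0 of 10 members passed, against 0.0116% of all genes, and DESeq2 and limma called 0 as well. At an unadjusted p under 0.05 there were 0. Values lay between −0.21 for Csrp3 and 0.19 for Ttn. Csrp3 had a mean of 1417 ± 114 CPM in R403Q-EMPA (SD, n = 4) against 1638 ± 232 in R403Q-CD (SD, n = 7), with a 95% interval of the log2 difference from −0.43 to 0.01. The R403Q-CD mice also enter the comparison with WT-CD, so both comparisons share them. The bound farthest from 0 was that of Ttn, 0.50. Groups did not overlap for 0 of 10 members, against 1.62% of all genes.

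In WT mice, compared between the diets, 3 members had groups that did not overlap, against 3.45% of all genes, although 0 of 10 passed, against 0.0289% of all genes called. DESeq2 called 1 member, Myoz2 (log2 fold change −0.26, adjusted p = 0.0132), where it called 0.737% of all genes, and limma called 0. At an unadjusted p under 0.05 there were 3, Tpm1, Ttn and Myoz2. The median over the members was −0.16, against −0.00 over all genes tested, and 9 of 10 values were below 0. Cage cannot be separated from diet here. The summed level of 5 blood markers ran from 706 to 1279 CPM in WT-CD and from 1235 to 2002 CPM in WT-EMPA, with 0 of 5 called by edgeR and 4 at an unadjusted p under 0.05, and its part in the members' values was not tested.

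Myoz2 had 1334.5, 1387, 1479, 1498 and 1549 CPM in WT-CD and 1149, 1149, 1217, 1228 and 1290 CPM in WT-EMPA. All 5 treated mice were lower than all 5 control mice, with a log2 difference of −0.26 (SE 0.0729, adjusted p = 0.202, edgeR). In R403Q hearts the values were 1428 ± 123 CPM on CD (SD, n = 7) and 1300.1 ± 32.1 CPM on EMPA (SD, n = 4).

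Tpm1, the core tropomyosin, had 10976, 11755, 11826, 11910.3 and 12162.5 CPM in WT-CD and 7661, 9053, 9169, 9185 and 10344 CPM in WT-EMPA. The groups did not overlap, and the log2 fold change was −0.37 (SE 0.126, adjusted p = 0.287, edgeR). Ttn went the other way, with 4105, 5889.7, 6549.6, 6822 and 7189.9 CPM in WT-CD and 7350.4, 7404, 8175, 8575 and 9054 CPM in WT-EMPA. Its log2 fold change was 0.41 (SE 0.149, adjusted p = 0.307, edgeR).

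The interaction of genotype and diet asks whether the diet difference depends on genotype. It passed for 0 of 10 members and for 0% of all genes tested (edgeR, DESeq2 and limma each called 0 genes), with 567 genes and 0 members at an unadjusted p under 0.05. For Csrp3 the interaction was −0.04 with a 95% interval from −0.35 to 0.26, and for Ttn it was −0.22 with an interval from −0.65 to 0.22. These intervals do not show that the diet acts alike in both genotypes.

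A property of the libraries moved with part of these values. For each mouse, the deviation of log2 CPM from the mean over mice was regressed on log2 transcript length over 9404 genes; a positive slope means that long transcripts took relatively more counts. Its mean ± SD was 0.00206 ± 0.0299 (WT-CD, n = 5), −0.0377 ± 0.042 (R403Q-CD, n = 7), 0.0616 ± 0.0588 (WT-EMPA, n = 5) and −0.0136 ± 0.0527 (R403Q-EMPA, n = 4). In R403Q-CD the slope ran from −0.128 (replicate 4) to 0.00428 with a median of −0.0289. In R403Q-EMPA the slope ran from −0.0838 (replicate 1) to 0.0439 with a median of −0.00737. After group means were subtracted, its Pearson correlation with log2 CPM over 21 mice was 0.64 for Ttn and −0.81 for Tnnc1, −0.59 for Csrp3, −0.55 for Tpm1 and −0.38 for Myoz2. Without R403Q-CD replicate 2 these were 0.64, −0.81, −0.75, −0.59 and −0.41. These are descriptions, and the points share library depth and preparation.

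With the slope as a covariate, the averaged log2 fold change of Csrp3 was 0.14 in place of 0.26, as given above, and that on the CD diet was 0.20 in place of 0.28 (adjusted p = 0.231, edgeR). In WT-EMPA against WT-CD the value of Ttn was 0.22 in place of 0.41, that of Tpm1 −0.24 in place of −0.37 and that of Myoz2 −0.22 in place of −0.26. The Myoz2 value thus moved the least of the 3. Over all genes the averaged comparison called 233 genes with this covariate in place of 1883.

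**Figure D3:**
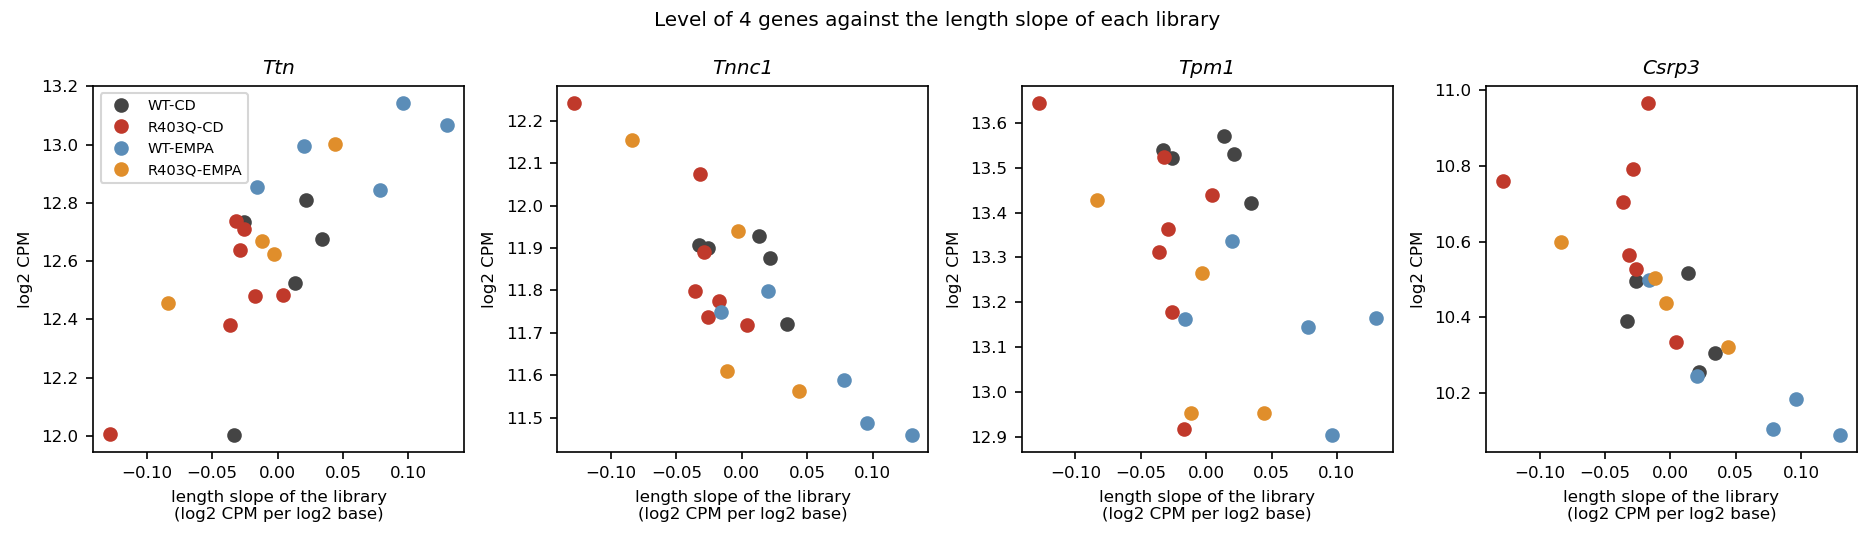
Log2 CPM of Ttn, Tnnc1, Tpm1 and Csrp3 (vertical axes, not starting at 0) against the length slope of each library (horizontal axes), 1 point per mouse, coloured by group. The long Ttn transcript lies higher where the slope is higher, the short Tnnc1 transcript lies lower (r = −0.81 with group means subtracted), and 3 of 5 WT-EMPA mice have the highest slopes.

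Between mice of the same group, the regulatory thin filament genes varied together. With group means subtracted, the Pearson correlation of log2 CPM over 21 mice was 0.90 for Tnnt2 with Tnni3, 0.90 for Tnni3 with Tpm1, 0.85 for Tnnt2 with Tpm1 and 0.80 for Tnnc1 with Tpm1. Without R403Q-CD replicate 2 these were 0.86, 0.87, 0.78 and 0.88. Tnnt2 with Tnnc1 had 0.71 and Tnni3 with Tnnc1 0.67, or 0.77 and 0.87 without that mouse. The Z-disc gene Myoz2 had 0.78 with Tnni3, 0.65 with Tnnt2, 0.56 with Tpm1 and 0.43 with Tnnc1. Without that mouse the Myoz2 values were 0.54, 0.41, 0.28 and 0.44. For Actc1, the filament's backbone, the values were 0.23 with Tnnt2, 0.17 with Tnni3, 0.48 with Tpm1 and 0.56 with Tnnc1, or 0.42, 0.47, 0.72 and 0.60 without that mouse. Mybpc3, the thick filament member, had its highest correlations with Actn2 and Tnnt2 (0.37 each, or 0.28 and 0.15 without that mouse). Csrp3 and Actn2 varied against each other (−0.61, and −0.57 without that mouse), and Ttn was negative with 8 of the 9 other members. All of these share the length slope and the library total.

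**Figure D4:**
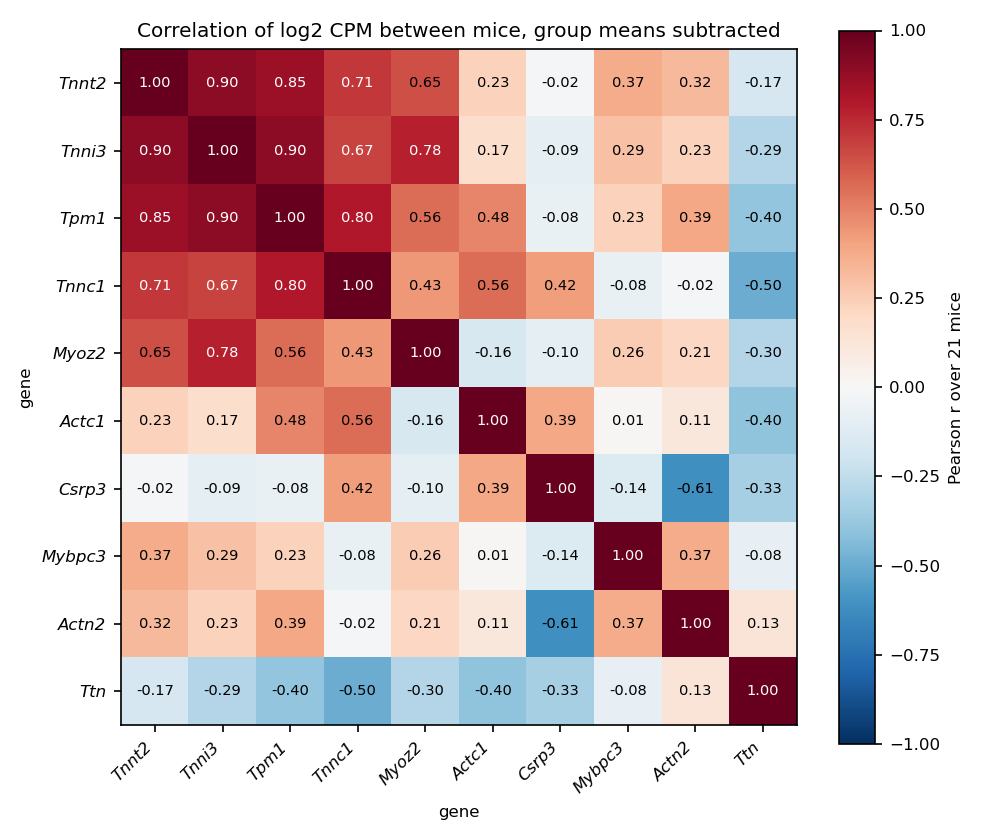
Pearson correlation (colour, from −1 to 1) of log2 CPM between each pair of the 10 genes over 21 mice after group means were subtracted. Tnnt2, Tnni3, Tpm1 and Tnnc1 form a block of high values, and Ttn is mostly negative.

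Outside the members, the genes whose levels followed each member most closely, by the same correlation among 9394 genes, differed by member. For Tnni3 they were BC004004, Suclg1 and Sdhb (0.97 to 0.98), for Tnnt2 Atp5f1, Ckmt2 and Decr1 (0.94 to 0.95), and for Tpm1 Pdhb, Lrrc39 and Cdc37 (0.94 to 0.95). Suclg1, Sdhb, Atp5f1, Ckmt2, Decr1 and Pdhb encode mitochondrial proteins of energy metabolism. Tnnc1 was closest to Cops5, Mrpl35 and Abracl (0.92 to 0.94), Myoz2 to Chchd3, Mtrf1 and Amz2 (0.86 to 0.89, or 0.72 to 0.79 without R403Q-CD replicate 2) and Csrp3 to Sec13, Pdzd11 and 3110040N11Rik (0.86 to 0.88). Actc1 followed Tspan3, Tomm40l and Snrpn (0.84 to 0.87). Mybpc3 followed Mcat and Adck1 (0.84 each), Actn2 followed Vcp, Map4k4 and Gpam (0.85 to 0.86), and Ttn followed Nfat5, Ttbk2 and Lrig2 (0.82 to 0.84).

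The cardiac forms dominated their families. Skeletal α-actin (Acta1) made up 2.45 ± 0.723% of the pair with Actc1 by TPM over 5 WT-CD mice and 5.69 ± 6.17% over 7 R403Q-CD mice (mean ± SD), where 1 mouse reached 19.0% and the median was 2.92%. Acta1 did not pass in R403Q-CD against WT-CD (adjusted p = 0.164, edgeR). Slow skeletal troponin I (Tnni1), the fetal form, stayed at or under 0.0142% of the pair with Tnni3 in all mice, and Tnnt1 at or under 0.218% of the pair with Tnnt2. Of 20 paralogs 17 could be tested, and over both diets 2 rose and 0 fell in R403Q, beside 6.3% and 4.58% of all genes tested. Mybpc2, fast skeletal myosin-binding protein C, rose from 58.6 ± 12 to 82.7 ± 31.2 CPM on CD (SD, n = 5 and 7) and from 53.5 ± 10.1 to 90 ± 22.4 CPM on EMPA (SD, n = 5 and 4), 0.62 on the log2 scale over both diets (SE 0.166, adjusted p = 0.0224, edgeR). Tpm3, another tropomyosin, rose by 0.24 (adjusted p = 0.0326, edgeR).

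Among 43 other genes of the sarcomere and its upkeep, 14 passed in the average over both diets, 12 lower and 2 higher in R403Q, where 4.58% of all genes tested were lower and 6.3% higher. The median was −0.07, against 0.01 over all genes tested, and it was −0.01 with library size alone, −0.12 without R403Q-CD replicate 3 and −0.11 without R403Q-EMPA replicate 2. With cage as a factor 6 were lower and 1 higher (2.88% and 2.58% of all genes), and without R403Q-EMPA replicate 1 there were 7 lower and 2 higher (2.24% and 3.22%). In R403Q-CD against WT-CD, R403Q-EMPA against WT-EMPA, both diet comparisons and the interaction 0 of 43 passed in the edgeR fit of all 21 mice. In R403Q-CD against WT-CD 7 were lower and 1 higher with cage as a factor (2.96% and 3.55% of all genes), 6 lower and 2 higher without R403Q-CD replicate 3 (2.65% and 3.37%), 1 higher without replicate 4 (0.834%), 1 lower without replicate 6 (0.86%) or with the length slope as a covariate (0.26%), and 6 lower and 1 higher with DESeq2 (2.25% and 3.35%). In R403Q-EMPA against WT-EMPA 1 was lower and 1 higher in a fit of those groups only (0.337% and 0.403%), and 4 were lower with DESeq2 (0.945%), which also gave 1 higher and 1 lower in each diet comparison (0.498% and 0.44% of all genes in R403Q, 0.537% and 0.2% in WT). With the length slope as a covariate 1 of the 43 was lower in the average and 0 higher (0.607% and 0.739% of all genes). The median of the 43 was then −0.08, against −0.07 in the main fit.

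Of 15 Z-disc partners, 5 fell and 2 rose over both diets, beside 4.58% and 6.3% of all genes tested. Ldb3 (cypher, a binding partner of α-actinin) had means ± SD of 1237 ± 83.6 CPM (WT-CD, n = 5), 1074 ± 88.7 (R403Q-CD, n = 7), 1274 ± 66.3 (WT-EMPA, n = 5) and 1079.5 ± 53 (R403Q-EMPA, n = 4). Its averaged log2 fold change was −0.22 (SE 0.0516, adjusted p = 0.0122, edgeR). Vcl (vinculin) fell by 0.25, Nebl (nebulette) by 0.29, Mypn (myopalladin) by 0.32 and Palld (palladin) by 0.28 on the log2 scale. Myot (myotilin, an α-actinin and filamin binder) rose by 0.61 (SE 0.153, adjusted p = 0.0169, edgeR) and the LIM protein gene Pdlim3 by 0.27 (adjusted p = 0.0426, edgeR). Tcap (telethonin, which caps titin at the Z-disc) did not pass, at −0.19.

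At the M-band and along titin, 3 of 10 fell and 0 rose, beside the same shares. They were Obsl1 (obscurin-like 1, which binds titin and myomesin), with −0.29 (SE 0.0539, adjusted p = 0.00396, edgeR), Cmya5 (myospryn) with −0.45 (adjusted p = 0.0139, edgeR) and Myom1 (myomesin, which cross-links thick filaments) with −0.19 (adjusted p = 0.0448, edgeR). Obsl1 ran from 124 to 146 CPM in WT-CD and from 100 to 127 CPM in R403Q-CD.

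At the thin filament ends, 2 of 8 fell and 0 rose over both diets, beside 4.58% and 6.3% of all genes tested. Fhod3 (a formin that promotes actin assembly in sarcomeres) fell by 0.39 (adjusted p = 0.0318, edgeR). Tmod1 (tropomodulin, the pointed-end cap) fell by 0.17 (adjusted p = 0.0224, edgeR). Of 10 chaperones and desmin network genes, 2 fell and 0 rose, beside the same shares. The myosin chaperone gene Unc45b fell by 0.23 and Bag3, a co-chaperone at the Z-disc, by 0.25 (adjusted p = 0.0181 and 0.0194, edgeR).

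Of 20 transcription and splicing factors, 5 fell and 0 rose over both diets, beside 4.58% and 6.3% of all genes tested. Tead1, whose family binds the MCAT element, fell by 0.32 (SE 0.0812, adjusted p = 0.017, edgeR), and Myocd (a coactivator of serum response factor) by 0.30, Prox1 by 0.30, Mef2a by 0.17 and Gata6 by 0.17. Rbm20, which controls splicing of titin, stood at −0.22 on the log2 scale (adjusted p = 0.0908, edgeR).

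**Figure D5:**
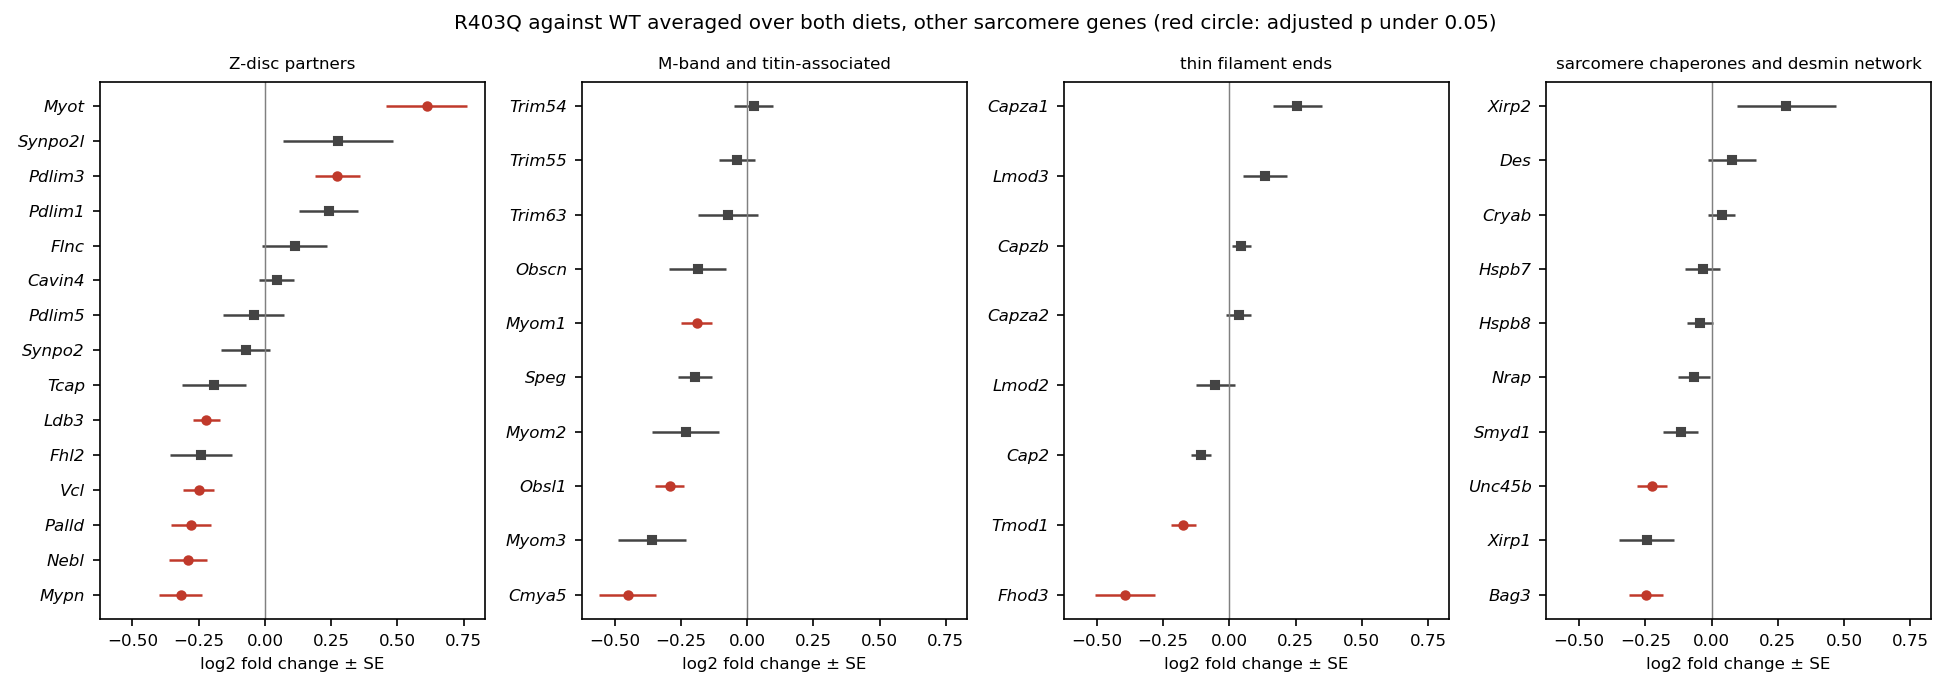
Log2 fold change ± SE of R403Q against WT, averaged over both diets, of 43 other sarcomere genes in 4 lists; red circles have an adjusted p under 0.05 (edgeR). Of the red circles, 12 lie below 0 and 2 (Myot and Pdlim3) above.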

How the data were processed

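Left ventricles of 21 mice were analysed by poly(A) RNA-seq. The deposited counts are whole read counts per Ensembl gene, for which the authors aligned reads with STAR 2.6.0c to mm10 and counted uniquely aligned proper pairs with featureCounts (Subread 1.6.2), mitochondrial genes left out. The deposited log2 values are variance-stabilized values that the authors made with DESeq2 1.32.0.

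All comparisons came from 1 fit of the counts of 21 mice in 4 groups with edgeR 4.0.16 in R 4.3.3 (quasi-likelihood test, TMM factors, filterByExpr with a minimum count of 10, Benjamini-Hochberg adjustment over 17309 genes, adjusted p under 0.05). Log2 CPM used a prior count of 2. The scripts were tested on simulated data. Alternatives were DESeq2 1.42.0, limma 3.58.1 on the deposited log2 values, library size alone, no filter, the compared groups only, cage as a factor and each mouse left out. A length slope covariate was added after seeing the data. The 10 members and the gene lists were chosen with earlier results of these data known. All 10 members and Myh6 were named, and of each related list the genes that passed, or else those with the smallest p. Cage was taken from the labels, which name no library batch. For likeness, the 3 genes with the highest correlation to each member were named, except 1 that is not reported here.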

Additional observations from a re-analysis of the deposited data

Results flagged for a closer look

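Of 40 sets of values (10 genes in 4 groups), 2 held a mouse that lay far from the others by Dixon's criterion, which chance meets in about 1 of 20 groups. Mybpc3 of WT-CD replicate 4 was 6572 CPM, where the nearest of the other 4 mice had 5150 CPM. Tnnc1 of WT-CD replicate 2 was 3374 CPM, where the nearest had 3762 CPM. Neither gene passed in any comparison.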

How the results depend on the processing

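Between 0 and 1 members passed under every alternative. Averaged over both diets, 0 passed without a filter on low counts (Csrp3 0.25, adjusted p = 0.0624, edgeR), with cage as a factor and with the length slope as a covariate, and 1 with DESeq2, limma and library size alone; leaving out single mice gave 0 to 1. Over the 21 mice left out in turn the Csrp3 log2 fold change was 0.22 to 0.30 and its adjusted p 0.0106 to 0.0765 (edgeR). In R403Q-CD against WT-CD leaving out single mice gave 0 to 1 (Csrp3), and in WT-EMPA against WT-CD DESeq2 gave 1 (Myoz2). The cause was not tested. The length covariate changed the sign of 17 of 60 member values, none of them with an unadjusted p under 0.05.

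Over all genes, R403Q-CD against WT-CD called 250 genes, but 971 with DESeq2, 1128 with cage, 98 with the compared groups only and 120 with the length covariate. R403Q-EMPA against WT-EMPA called 10, but 297, 0, 123 and 1. R403Q-EMPA against R403Q-CD called 2, but 145 with DESeq2, 5 by library size, 0 with the groups only and 12 with the covariate. WT-EMPA against WT-CD called 5, but 114 with DESeq2, 1 with limma and 0 by library size or with the covariate. The average called 1883, but 944 with cage and 233 with the covariate. Leaving out single mice gave 31 (without WT-CD replicate 3) to 1045 (without R403Q-CD replicate 3) genes in R403Q-CD against WT-CD and 961 (without R403Q-EMPA replicate 1) to 2764 (without R403Q-CD replicate 3) in the average. It gave 1 (without R403Q-EMPA replicate 1) to 64 (without WT-EMPA replicate 3) in R403Q-EMPA against WT-EMPA, 0 to 12 (without R403Q-CD replicate 1) in R403Q-EMPA against R403Q-CD and 0 to 7 (without WT-EMPA replicate 1) in WT-EMPA against WT-CD. The labels carry no replicate numbers, so the one block that could be fitted was cage.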
